A study of Rattus norvegicus with 6 samples.

Results

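The lysyl oxidases and the structural genes of the elastic fibre were followed in rat adipose-derived stem cells (ADSCs) kept in adipogenic medium and in control ADSCs. ADSCs are precursors from the stroma of fat, which can be grown in culture and turned into adipocytes. The set named 10 genes: the 5 lysyl oxidases Lox, Loxl1, Loxl2, Loxl3 and Loxl4, and the 5 elastic fibre genes Eln, Fbn1, Fbn2, Fbln5 and Mfap5. A gene was measured where the platform annotation gave a feature (probe set) with that symbol alone, which held for 8 of the 10 among 18166 genes in all. Fbn2 was paired with 0 features of the table and both features that carry the Fbln5 symbol also carry a second gene's symbol, so neither gene has a value here.

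Induced cells (3 arrays) had spent 7 days in α-MEM with 20% fetal bovine serum and 3 inducers, which were insulin at 5 µg/ml, the glucocorticoid dexamethasone at 1 µM and 3-isobutyl-1-methylxanthine, which raises cAMP, at 0.5 mM. Control cells (3 arrays) grew in α-MEM holding 10% serum, so the amount of serum and the inducers cannot be told apart, and how long control cells were cultured is not stated in the labels. All cells came from inguinal fat of female Wistar rats 2 weeks old, and the labels call the 3 samples of each group biological replicates without saying whether they are separate animals or cultures. P-values therefore measure the spread between these samples, which may be technical.

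Lysyl oxidases are secreted copper enzymes that oxidise lysine residues of collagen and elastin, the step from which covalent cross-links form. Elastic fibres have a core of cross-linked elastin laid on a scaffold of fibrillin microfibrils, and fibulins and microfibril-associated glycoproteins help to join the parts. In fat tissue these proteins belong to the pliable matrix around precursor cells and adipocytes, which is remodelled as cells fill with lipid.

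No member passed the test across all genes. By limma with Benjamini-Hochberg adjustment over 18166 genes, 0 of 8 measured members had an adjusted p under 0.05, against 0.749% of all genes. The array-weighted fit of the same tool passed 2, Loxl4 and Eln, where 5.11% of all genes passed. It gave induced replicate 3 a weight of 0.27, against 0.77 to 1.90 for the other arrays. At an unadjusted p under 0.05 stood 3 of 8 members (Loxl3 and Loxl4 lower, Eln higher in induced cells), against 17.6% of all genes. On all 3 induced arrays Lox, Loxl3 and Loxl4 read below all 3 control arrays, and Eln above them. This makes 3 of 8 members that lay wholly lower, against 13.4% of all genes, and 1 wholly higher, against 12.0%. The median log2 change over the members was -0.51, beside -0.01 over all genes, and it was -0.22 with array weights, -0.11 without induced replicate 3 and -0.07 without both replicate 3 arrays.

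**Figure D1:**
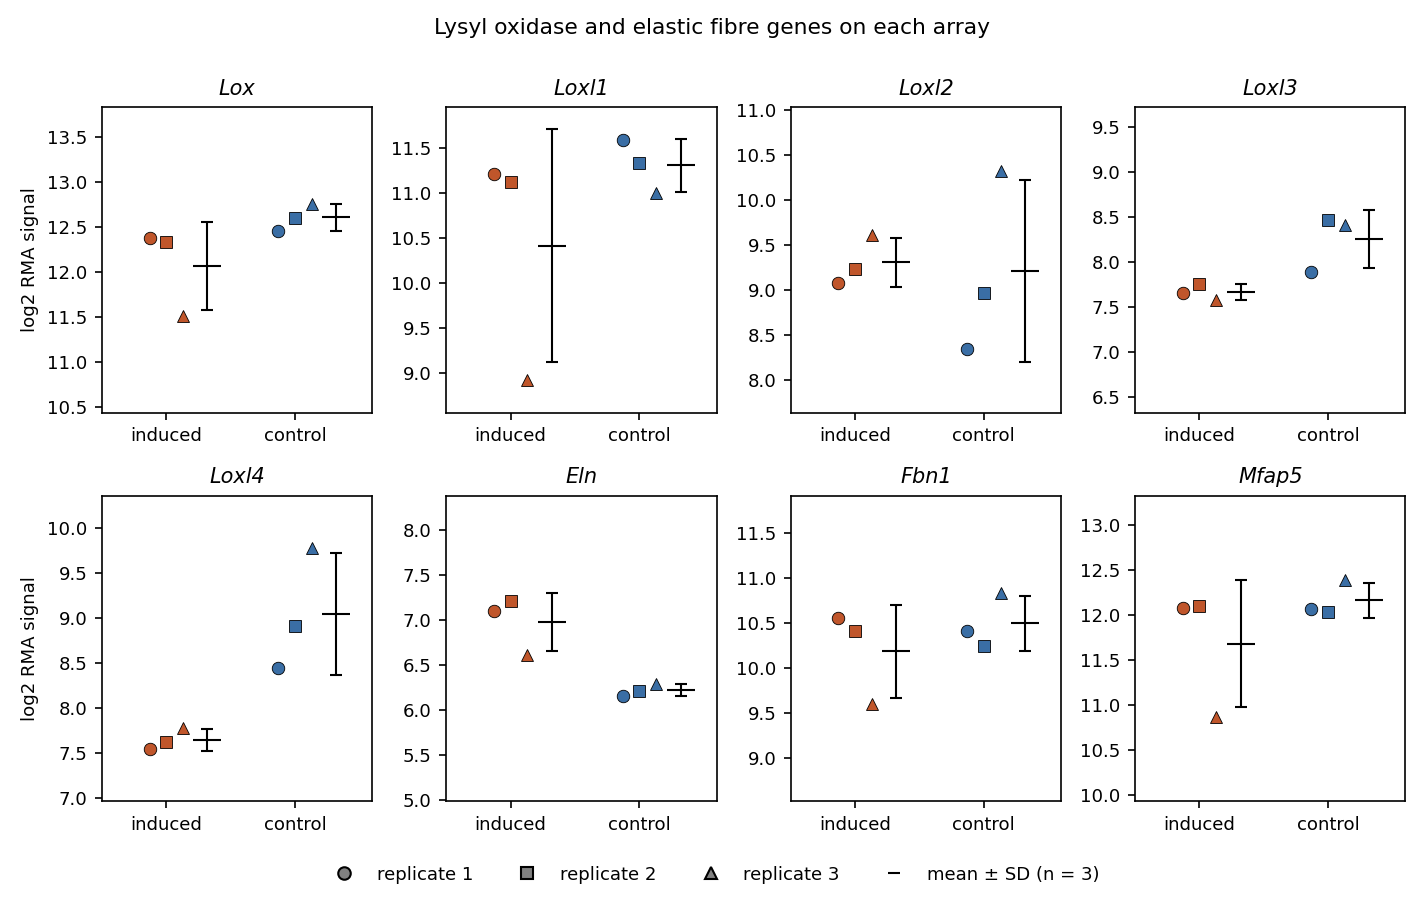
Log2 RMA signal (y axis, each panel spanning the same number of log2 units) of the 8 measured members on the 3 induced and 3 control arrays, with the mean and SD of each group as a bar. Loxl4 separates the groups most widely, Eln is the one gene wholly higher in induced cells, and induced replicate 3 lies far below the other induced arrays for Loxl1 and Mfap5.

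The values are log2 signals after RMA, which corrects background, equalises the distributions of the arrays and sums up probes, where a step of 1 is a doubling. Array medians lay between 5.64 and 5.73. Induced replicates 1 and 2 had 546 features over 2-fold apart, while induced replicate 3 had 2745 and 2664 features that far from them, and control arrays 885 to 1385 among themselves. On induced replicate 3 the signal of 41.3% of all genes was below both other induced arrays.

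RefSeq (GRCr8) held promoter sequence for 5 of the 8 measured members, namely Loxl1, Loxl3, Loxl4, Fbn1 and Mfap5. The 250 bases before the annotated start are shown for Loxl3 and Loxl4, because both read lower on every induced array. Capitals mark matches to the motifs given after them.
Loxl4 (chr1:251365578-251365827, minus strand): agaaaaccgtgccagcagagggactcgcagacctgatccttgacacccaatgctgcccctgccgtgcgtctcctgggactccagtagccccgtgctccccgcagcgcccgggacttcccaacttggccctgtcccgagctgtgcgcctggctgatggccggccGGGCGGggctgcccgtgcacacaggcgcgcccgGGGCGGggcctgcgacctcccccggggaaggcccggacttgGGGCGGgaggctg
Loxl3 (chr4:117098108-117098357, plus strand): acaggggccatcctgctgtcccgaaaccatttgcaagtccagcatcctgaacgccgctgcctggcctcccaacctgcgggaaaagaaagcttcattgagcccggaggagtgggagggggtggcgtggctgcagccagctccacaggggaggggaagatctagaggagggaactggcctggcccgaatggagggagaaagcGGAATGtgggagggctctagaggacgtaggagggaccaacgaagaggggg
The Loxl4 window held 3 matches to the GC box GGGCGG, beginning 87, 54 and 13 bases before the start, and was 72.8% G and C against a median of 51.2% over 33469 promoters of the same length. A GC box on either strand was in 30.5% of those promoters. The G and C share was not particular to Loxl4: the window of Fbn1, whose groups overlap, was at 71.2%. Those of Loxl3, Loxl1 and Mfap5 were at 62.4%, 60.4% and 51.6%. The Loxl3 window held 1 match to GGAATG, the core of the site bound by TEAD factors, beginning 50 bases before the start, and 12.1% of promoters held one on either strand. The window of Loxl1, whose groups overlap, also held 1, beginning 186 bases before its start on the opposite strand. The glucocorticoid receptor half-site TGTTCT, the cAMP response element TGACGTCA and its half-site TGACG, the TATA box TATAAA and the SMAD palindrome GTCTAGAC were searched on both strands too, and these letters are in neither window. They were in 17.5%, 1.59%, 18.2%, 12.9% and 0.173% of promoters, in that order. TGACG lies within TGACGTCA, so those counts overlap. A match is a description of the letters and no test of binding.

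Loxl4, a lysyl oxidase with scavenger receptor domains, had the largest estimate of the set. It read 7.54, 7.62 and 7.78 on the induced arrays, against 8.44, 8.90 and 9.78 on the control arrays. The induced values were close together and all lay below the lowest control array, while the control arrays were spread over 1.33 log2 units, a wider range than 97.7% of genes showed. Its log2 change was -1.40 (SE 0.32, 95% interval -2.17 to -0.63, limma adjusted p = 0.110), from group means of 7.64 ± 0.12 in induced cells and 9.04 ± 0.68 in control cells (SD, n = 3 each), which is 2.64-fold lower. An estimate as low as this or lower was found for 0.732% of all genes. Without both replicate 3 arrays the estimate was -1.10 and passed (limma adjusted p = 0.0254), where 4.07% of all genes did, and with array weights it passed too, at -1.45 (adjusted p = 0.0315). These were 2 of 14 alternative settings, over which adjusted p ran from 0.0254 to 0.285. Both leave out induced replicate 3 or give it the least weight. Leaving out any single array did not make Loxl4 pass.

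Loxl3, its close relative with the same type of domains, read 7.66, 7.75 and 7.58 on the induced arrays, against 7.89, 8.47 and 8.42 on the control arrays. The highest induced and the lowest control value were near each other, yet the groups did not overlap. The log2 change was -0.59 (SE 0.18, 95% interval -1.01 to -0.17, limma adjusted p = 0.170). It kept its sign and missed the threshold under all 14 alternative settings, with estimates between -0.78 and -0.47 and adjusted p from 0.0599 to 0.421.

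Loxl2, the third of the scavenger receptor type, read 9.07, 9.24 and 9.60 on the induced arrays, against 8.34, 8.97 and 10.32 on the control arrays. All induced values lay inside the control range, and that range, 1.99 log2 units, was wider than for 99.3% of genes. Its log2 change was 0.10 (SE 0.48, limma adjusted p = 0.948), and the 95% interval, -1.05 to 1.24, leaves room for a doubling in either direction. The estimate without control replicate 1 was -0.34 and without control replicate 3 it was 0.65.

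Lox, the founding member of the family and the enzyme whose loss is known to break elastic fibres in mice, read 12.38, 12.33 and 11.51 on the induced arrays, against 12.46, 12.60 and 12.76 on the control arrays. The groups did not overlap, but induced replicates 1 and 2 were close to the lowest control array, and induced replicate 3 was far lower. The log2 change was -0.54 (SE 0.25, 95% interval -1.13 to 0.06, limma adjusted p = 0.328), and without induced replicate 3 it was -0.25 (adjusted p = 0.386).

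Loxl1, which in mice is needed to keep elastic fibres in adult tissue, read 11.21, 11.11 and 8.91 on the induced arrays, against 11.59, 11.33 and 11.00 on the control arrays. Induced replicates 1 and 2 fell inside the control range, and induced replicate 3 minus their mean was -2.25, a difference that was as low or lower for 0.556% of all genes. The log2 change was -0.89 (SE 0.60, 95% interval -2.33 to 0.55, limma adjusted p = 0.504). Without induced replicate 3 it was -0.14 (95% interval -0.58 to 0.30, adjusted p = 0.776).

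Eln, which encodes tropoelastin, the soluble precursor of the fibre core, read 7.10, 7.21 and 6.61 on the induced arrays, against 6.15, 6.21 and 6.29 on the control arrays. Every induced array lay above every control array, and induced replicate 3 was again the lowest of its group. The control values sat within 0.14 log2 units of each other, close above the array medians. Eln averaged 6.97 ± 0.32 in induced cells and 6.21 ± 0.07 in control cells (SD, n = 3 each), a log2 change of 0.76 (SE 0.17, 95% interval 0.34 to 1.17, limma adjusted p = 0.109). Of all genes 4.48% had an estimate as high or higher. Eln passed in 3 of 14 alternative settings: without induced replicate 3 at 0.94 (adjusted p = 0.0127), without both replicate 3 arrays at 0.98 (adjusted p = 0.0137) and with array weights at 0.89 (adjusted p = 0.0130). Each of these leaves out induced replicate 3 or gives it the least weight.

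Fbn1, which encodes fibrillin 1, the main microfibril protein, read 10.55, 10.41 and 9.59 on the induced arrays, against 10.40, 10.24 and 10.83 on the control arrays. The groups overlapped, and induced replicates 1 and 2 lay inside the control range. The log2 change was -0.31 (SE 0.28, 95% interval -0.99 to 0.37, limma adjusted p = 0.634), and it was -0.01 without induced replicate 3 and 0.16 without both replicate 3 arrays.

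Mfap5, the microfibril-associated glycoprotein MAGP2, read 12.08, 12.10 and 10.87 on the induced arrays, against 12.07, 12.03 and 12.39 on the control arrays. Induced replicates 1 and 2 matched control replicates 1 and 2 closely, and induced replicate 3 minus the mean of its group's other arrays was -1.22. The log2 change was -0.48 (SE 0.34, 95% interval -1.30 to 0.33, limma adjusted p = 0.525), with -0.07 without induced replicate 3 and 0.04 without both replicate 3 arrays.

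**Figure D2:**
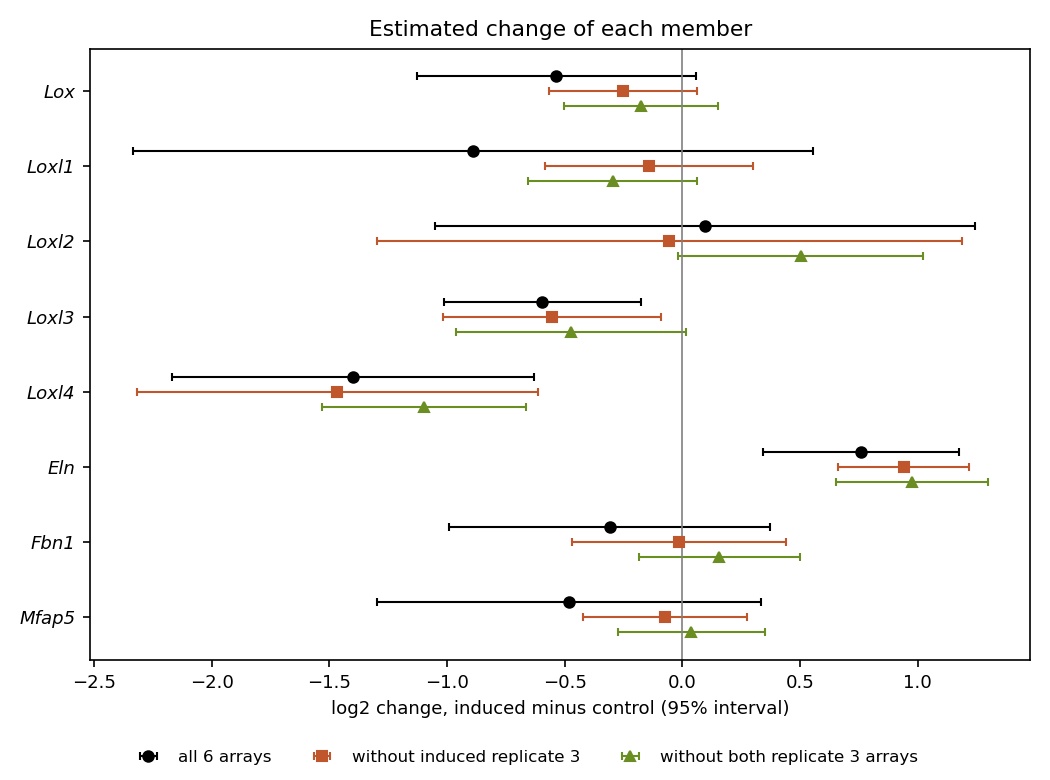
Log2 change, induced minus control (x axis, points), with its 95% interval for each measured member in the limma fit on all 6 arrays, without induced replicate 3 and without both replicate 3 arrays. The intervals of Loxl4 and Eln keep clear of 0 in all 3 fits, while the estimates of Lox, Loxl1, Fbn1 and Mfap5 move towards or past 0 without induced replicate 3 or both replicate 3 arrays.

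Induced replicate 3 divided the members. Its value was below both other induced arrays for 6 of 8 members, against 41.3% of all genes, and it was the lowest of all 6 arrays for 5 of 8, against 28.9%. The shift from the mean of induced replicates 1 and 2 was -2.25 for Loxl1, -1.22 for Mfap5, -0.89 for Fbn1, -0.85 for Lox, -0.55 for Eln and -0.13 for Loxl3, and it was 0.20 for Loxl4 and 0.45 for Loxl2. Induced replicates 1 and 2 differed by at most 0.16 log2 units for any member. Whether these arrays share a culture or a day is not given in the labels.

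**Figure D3:**
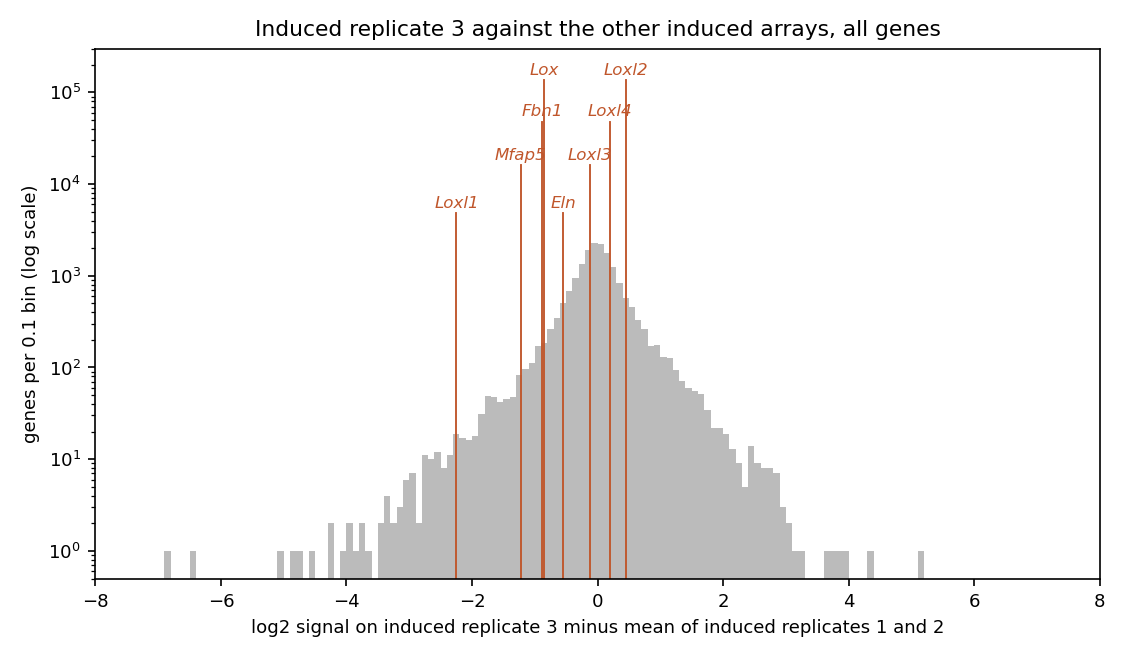
Number of genes per 0.1 log2 bin (y axis, log scale) by the signal on induced replicate 3 minus the mean of induced replicates 1 and 2 (x axis), over 18166 genes, with the measured members as lines. Loxl1, at -2.25, lies in the lower tail, and Loxl2 and Loxl4 lie above 0.

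Marker lists were read on the same arrays, where 0.749% of all genes passed and 17.6% had an unadjusted p under 0.05. The 10 adipocyte markers all had positive estimates and 5 passed, among them the glycerol phosphate enzyme Gpd1 at a log2 change of 4.93, the adipokine Retn at 4.72 and the droplet protein Cidec at 4.62 (limma adjusted p = 0.0189, 0.0188 and 0.0231). Leaving out induced replicate 1, induced replicate 2, control replicate 2 or control replicate 3 ended all 3 calls, at adjusted p from 0.0767 to 0.103. The mean of the list was 10.86, 10.87 and 11.75 on the induced arrays, against 8.52, 7.02 and 6.91 on the control arrays, so induced replicate 3 and control replicate 1 were each the highest of their group. Control replicate 1 was also the lowest control array for Lox, Loxl2, Loxl3, Loxl4 and Eln, and the highest for Loxl1. All 8 measured stromal precursor markers had negative estimates and 0 passed (5 at an unadjusted p under 0.05). Their mean was 8.34, 8.30 and 7.53 on the induced arrays, against 8.85, 8.79 and 8.86 on the control arrays, and was lowest on induced replicate 3. The part of these shifts in the members' values was not tested, and in bulk RNA fewer cells of a type and less RNA per cell cannot be told apart.

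The stem cell label was checked with the same list: Thy1 was at 11.14 ± 0.06 in induced cells and 12.11 ± 0.25 in control cells (SD, n = 3 each), whereas Cd34 was at 4.46 ± 0.32 and 5.78 ± 1.11 in those groups, means near or below the array medians. Cd34 read 7.03 on control replicate 3 beside 4.94 and 5.36 on its fellows. In control cells Pdgfra, Pdgfrb, Nt5e and Cd44 averaged 11.88, 10.46, 9.86 and 9.03, and Dpp4 and Pi16 both averaged 5.78. Smooth muscle and mural markers mark cells that also make elastin. Their list means overlapped between the groups, at 7.26 to 7.79 on induced and 6.94 to 7.56 on control arrays. Of these 7 markers 0 passed (3 at an unadjusted p under 0.05, against 17.6% of all genes). In induced cells 2 of them lay wholly higher and 0 wholly lower, against 12.0% and 13.4% of all genes. The 2 were Mcam at 2.42 (limma adjusted p = 0.191) and Notch3 at 0.80 (adjusted p = 0.102). Mcam read 10.51 on induced replicate 3 beside 7.66 and 7.56 on its fellows. The contractile genes Tagln, Myh11 and Des stood at -0.72, -0.62 and -0.58 (adjusted p from 0.279 to 0.509). The list mean of macrophage and leukocyte markers was low on replicate 3 of both groups. It was 7.56, 7.10 and 5.97 on induced and 6.65, 6.94 and 5.53 on control arrays, with 0 of 10 passing (1 unadjusted). Lyz2 fell furthest, to 4.44 on induced replicate 3 beside 11.56 and 10.99, and to 4.71 on control replicate 3 beside 9.31 and 10.19. Cd68 and Cd3e were instead highest of all 6 arrays on induced replicate 3, at 9.45 and 4.79. Endothelial markers had list means of 4.87 to 4.93 on induced and 4.98 to 5.18 on control arrays, below the array medians, with 0 of 5 passing (0 unadjusted). For mesothelial markers 0 of 5 passed (1 unadjusted), with list means of 5.73 to 5.80 on induced and 5.74 to 6.57 on control arrays. Of the 3 Schwann cell markers 0 passed (1 unadjusted, S100b at 2.19, which adipocytes are also known to express), with list means of 7.47 to 7.70 on induced and 6.69 to 7.08 on control arrays. The largest estimates in the macrophage, endothelial and mesothelial lists were C1qb at 1.89, Tek at -0.74 and Msln at -1.17 (limma adjusted p = 0.282, 0.340 and 0.260). C1qb read 8.17, 7.60 and 4.92 on the induced arrays, against 5.09, 4.98 and 4.96 on the control arrays, so the groups overlapped. Tek read 6.51 on control replicate 3 beside 5.17 and 5.28 on its fellows.

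**Figure D4:**
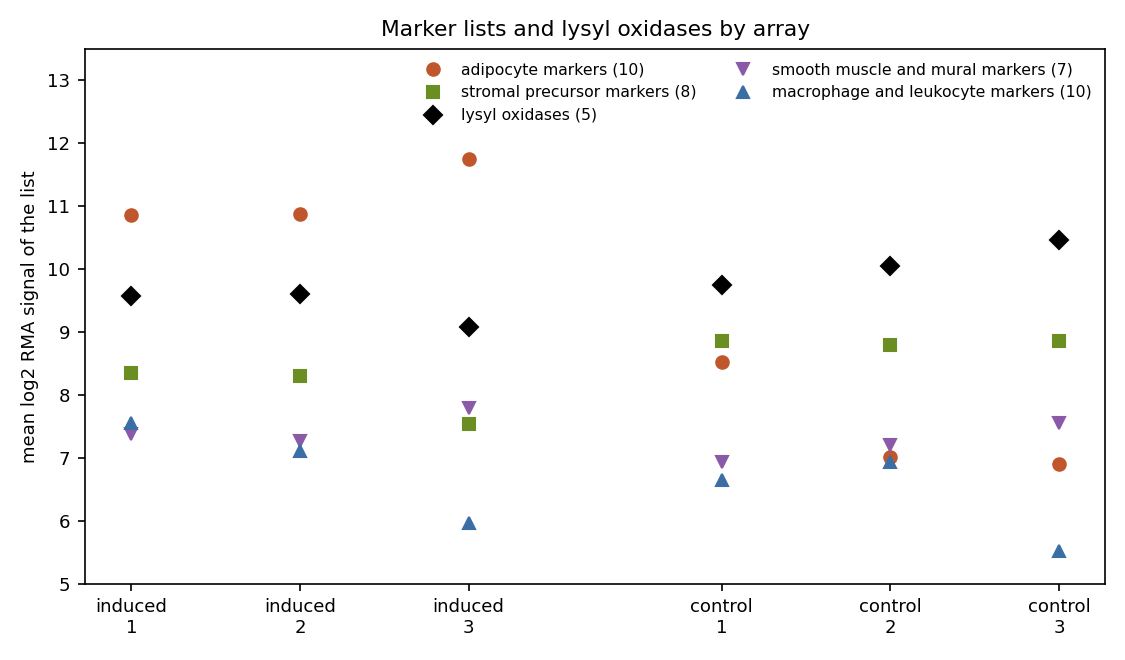
Mean log2 RMA signal (y axis) of each marker list and of the 5 lysyl oxidases on every array (x axis), with the number of genes per list in brackets. On induced replicate 3 the mean of the adipocyte list is highest, and the means of the stromal list and the lysyl oxidases are lowest. Single genes differ: Loxl2, Loxl4, Thy1 and Cd34 are highest of the induced arrays there, while Loxl1 and Pdgfra are far lower. Heights of different lists are not comparable.

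The wider pathway was read from 5 lists, and 0 of their 73 measured genes passed over all genes in limma (24 at an unadjusted p under 0.05), where 0.749% of all genes passed and 17.6% had such an unadjusted p. Among 19 partners in microfibril and elastin assembly 6 had positive and 13 negative estimates, with a median log2 change of -0.20, and 5 lay wholly lower in induced cells, against 13.4% of all genes. The median was -0.01 without induced replicate 3 and 0.11 without both replicate 3 arrays. Fbln1, a fibulin found in elastic fibres, read 7.04, 7.26 and 6.25 on the induced arrays, against 8.08, 9.09 and 8.47 on the control arrays. These groups were well apart, with a log2 change of -1.69 (limma adjusted p = 0.0898). Mfap4, a microfibril-associated protein that binds elastin, read 8.44, 8.14 and 6.02 on the induced arrays, against 8.75, 8.76 and 9.22 on the control arrays, a log2 change of -1.38 (adjusted p = 0.308), and -0.62 without induced replicate 3 (adjusted p = 0.153). Emilin1 had the smallest adjusted p of the list (limma, 0.065), at a log2 change of -1.33, and lay wholly lower in induced cells. It passed with array weights, without induced replicate 3 and without control replicate 1, where 5.11%, 3.07% and 0.617% of all genes passed. Under the other alternative settings it did not pass.

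Of 17 measured genes (18 listed) for lysyl oxidase maturation, copper supply and collagen lysine or proline modification, 3 had positive and 14 negative estimates (median -0.40), 8 lying wholly lower and 1 wholly higher in induced cells, against 13.4% and 12.0% of all genes. Without both replicate 3 arrays the median was -0.24. P4ha3, a catalytic subunit of collagen prolyl 4-hydroxylase, read 10.89, 10.77 and 9.71 on the induced arrays, against 11.84, 12.17 and 12.17 on the control arrays. It stood at -1.60 (limma adjusted p = 0.0866), with the groups apart on every array. Plod2, the lysyl hydroxylase that acts on collagen telopeptides and so sets the type of cross-link, stood at -2.13 (adjusted p = 0.285), with 5.88 on induced replicate 3 beside 8.83 and 9.00 on its fellows, and at -1.12 without induced replicate 3 (adjusted p = 0.296). Among the 11 fibrillar collagens, the other substrates of the lysyl oxidases, 9 had negative estimates and the median was -0.43, or -0.22 without both replicate 3 arrays. In induced cells 4 lay wholly lower and 0 wholly higher, against 13.4% and 12.0% of all genes. The 4 were Col1a1, Col1a2, Col2a1 and Col27a1. Col5a3 stood at 0.83 (adjusted p = 0.448) and Col5a1 at -0.77 (adjusted p = 0.278), both type V chains, and in both the groups overlapped. Without induced replicate 3 Col5a3 stood at 0.35, and without both replicate 3 arrays Col5a1 stood at -0.33.

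Enzymes that degrade elastin and their inhibitors had a median of -0.05 over 15 genes, 3 lying wholly higher and 3 wholly lower in induced cells, against 12.0% and 13.4% of all genes. Timp4, an inhibitor of matrix metalloproteases, stood at 1.93 (limma adjusted p = 0.0564), and Mmp12, the macrophage elastase, at -2.78 (adjusted p = 0.248). Mmp12 read 4.77, 4.60 and 4.76 on the induced arrays, against 9.07, 8.59 and 4.81 on the control arrays, so only control replicates 1 and 2 were high. The mean of the macrophage list was highest on induced replicates 1 and 2, where Mmp12 was low. Its markers differed, with Ptprc highest on control replicates 1 and 2 and Cd68 highest on induced replicate 3. The source of the Mmp12 signal was not tested. In the TGF-beta list, whose ligands are stored on fibrillin microfibrils through latent TGF-beta binding proteins, 11 of 14 genes were measured and 10 had negative estimates (median -0.46) and 6 lay wholly lower, against 13.4% of all genes. The median was -0.27 without induced replicate 3 and -0.14 without both replicate 3 arrays. Tgfbi, a TGF-beta induced matrix protein, read 5.96, 6.11 and 5.64 on the induced arrays, against 7.43, 9.07 and 10.16 on the control arrays. Its log2 change was -2.99 (adjusted p = 0.0963), and that of the ligand Tgfb1 was -0.93 (adjusted p = 0.0530). Without both replicate 3 arrays 7 of the 73 genes passed, against 4.07% of all genes. P4ha3, Mmp12 and Tgfb1 were lower in induced cells, and Timp4, Postn, Ctss and Cst3 were higher. The control array left out was far from its fellows for Mmp12, at 4.81, and for Postn, at 12.14 beside 8.93 and 8.35. For Ctss both arrays left out were low. It read 4.55 on induced replicate 3 beside 8.45 and 8.21, and 4.68 on control replicate 3 beside 6.15 and 6.94. On all 6 arrays the Ctss groups overlapped, at a log2 change of 1.15 (limma adjusted p = 0.655).

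**Figure D5:**
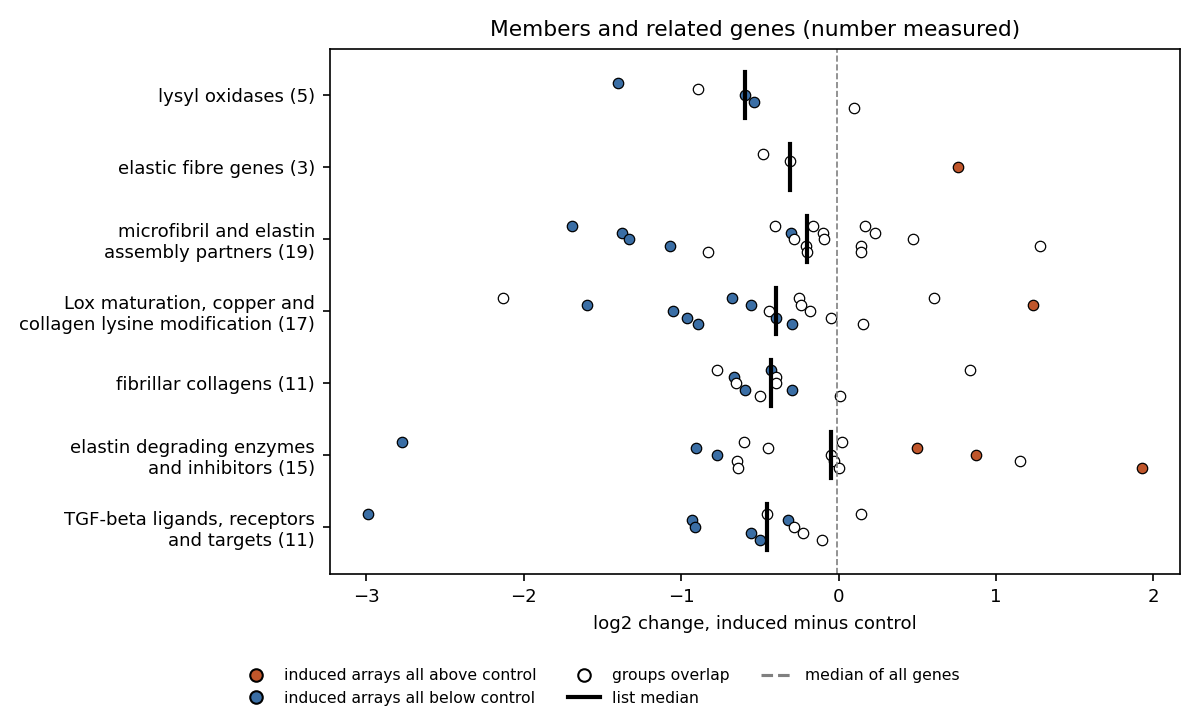
Log2 change, induced minus control (x axis), of each measured member and of each gene in the 5 related lists (rows), filled where the groups do not overlap, with list medians as bars and the median of all genes as a dashed line. Most filled points in the lysyl oxidase, maturation, collagen and TGF-beta rows lie left of 0, and Eln is the filled point furthest right among the members.

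Genes whose values followed Lox or Eln most closely over the 6 arrays were named by Pearson's r, among genes with a mean of at least 6 and an SD of at least 0.3. For Lox these were the transcription factor Foxp1 (r = 0.997), the BMP signal transducer Smad1 (r = 0.996) and the co-chaperone Bag3 (r = 0.996). Like Lox, each was lowest on induced replicate 3, and Foxp1 read 10.88, 10.83 and 9.79 on the induced arrays, against 10.91, 11.19 and 11.27 on the control arrays. For Eln they were the acute phase protein Orm1 (r = 0.987), the cytochrome P450 Cyp2f4 (r = 0.984) and the ectonucleotidase Entpd2 (r = 0.972). Orm1 read 9.58, 10.04 and 8.02 on the induced arrays, against 4.90, 5.39 and 5.47 on the control arrays, and rose by 3.96 (SE 0.50, limma adjusted p = 0.0323), a call lost when any single array other than induced replicate 3 was left out. These arrays share 2 groups and 1 outlying array, so a high r over 6 points describes the shape of the values and nothing more.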

How the data were processed

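RNA of 6 samples was measured on Affymetrix arrays from 6 µg of total RNA each, per the labels. The authors deposited log2 values made with RMA, per the submitters' processing notes, which name no version. The log2 scale was inferred from the range of the values. RMA gives no detection call, and arrays have no read depth, so their number limits the precision.

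Of 36685 features the platform annotation gives 18511 exactly 1 gene symbol, 575 several and 17599 none. Where several features shared a symbol, the brightest by its mean was kept. The groups were compared in R 4.3.3 with limma 3.58.1 (lmFit, then eBayes, two-sided, no block, 4 residual degrees of freedom), adjusting p-values by Benjamini-Hochberg over 18166 genes at 0.05. An exact permutation test of 3 against 3 arrays cannot go below 0.1, so none is given. The fit was tested on simulated data. Alternatives were a replicate block, array weights, another prior, a filter on low values, averaged features, adjustment over all features, median centring and arrays left out.

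The members and the gene lists were chosen with earlier results of these data known. All measured members are named. From each list come the called genes (at most 3 per direction) or else the 2 largest changes, and for Lox and Eln the 3 genes most alike over the arrays. Array comparisons, promoter motifs, further values of markers and further genes named from the lists were chosen after the values were seen.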

Additional observations from a re-analysis of the deposited data

How the results depend on the processing

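The direction of Lox, Loxl1, Loxl3, Loxl4 and Eln held under all 14 alternative settings. Loxl2 reversed with array weights (-0.00889) and ranged from -0.34 to 0.65 with single arrays left out, being negative without control replicate 1, control replicate 2 (-0.03) or induced replicate 3 (-0.05). Fbn1 and Mfap5 reversed without both replicate 3 arrays (0.157 and 0.039). The cause was not tested. Of 8 members 2 passed with array weights and 2 without both replicate 3 arrays, and 0 to 1 with single arrays left out. Over all genes 136 passed, against 12 with a replicate block, 929 with array weights, 58 adjusted over all features, 740 without both replicate 3 arrays, and 2 to 557 with single arrays left out. In the related lists 0 of 73 genes passed, against 7 with array weights, 2 among genes with a mean of at least 6 (61 tested), 1 after median centring, 7 without both replicate 3 arrays, and 0 to 5 with single arrays left out. Of all genes with a mean of at least 6, 1.49% passed, and after median centring 0.716% of all genes did.

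Same-numbered arrays deviated together at r = 0.02, 0.12 and 0.15 for replicates 1 to 3, so the numbers were not taken as pairs, and not every array correlated best with its own number. The replicate 3 arrays did correlate best with each other. Control replicate 3 stood at -0.12 and -0.14 with induced replicates 1 and 2, and induced replicate 3 at -0.04 and -0.14 with control replicates 1 and 2. Under the replicate block 0 members passed, with adjusted p of 0.112 for Loxl4 and 0.181 for Eln, and the calls of Gpd1, Retn, Cidec and Orm1 were lost, at adjusted p from 0.0678 to 0.0720. Low signals are compressed by RMA, which limits what can be read from Eln and Cd34.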
